A study of Mus musculus with 28 samples.

Results

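The response of mouse B-cell lymphomas to Adriamycin (ADR, doxorubicin, a DNA-damaging topoisomerase poison) was compared between lymphomas with high and with low expression of Cd5. The members were chosen by the log2 level of Cd5 in the untreated culture: the 5 lymphomas at 9 or more were taken as Cd5-high and the 9 below 9 as Cd5-low, which places all 14 lymphomas of the series. The lymphoma just inside the threshold, 7050, stood at 9.81, and the one just outside, 5560, at 7.19. For each lymphoma the change of each of 18193 genes was the ADR value minus the untreated value on the log2 scale, so that a difference of 1 is a 2-fold difference.

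All cultures were primary lymphoma cells from Emu-myc transgenic mice of the C57BL/6 strain, in which an immunoglobulin heavy-chain enhancer drives Myc in the B-cell lineage. All were also transduced with Bcl2 from an MSCVpuro retrovirus and selected with puromycin, so that no culture lacked either gene. Both the untreated culture and the ADR culture (0.05 µg/ml for 5 days) grew on a feeder layer of NIH 3T3 cells, irradiated mouse fibroblasts. The untreated arrays are recorded at day 0 and the ADR arrays at day 5, so drug and time in culture cannot be told apart. Each lymphoma gave 1 array per condition, 28 in all, and n counts lymphomas. Bulk arrays measure the RNA of a whole culture, so fewer cells of a type and less RNA per cell cannot be told apart.

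The p53 protein is a transcription factor that accumulates after DNA damage. It induces the cell cycle inhibitor Cdkn1a, its own inhibitor Mdm2 and genes of apoptosis, DNA repair and metabolism, and in Emu-myc lymphomas this pathway stands between treatment and either cell death or senescence. The Cd5 gene encodes a surface protein of T cells and of B-1 cells, an innate-like B-cell subset, and it dampens signalling from the antigen receptor.

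Some measurements set the groups apart before any response is considered. The 4 defining T-cell genes measured lay between 3.07 and 6.12 over all arrays, where the median of an array was 4.73 untreated and 4.75 with ADR, while the 8 defining B-cell genes had a median of 9.82 in untreated Cd5-high and 10.09 in untreated Cd5-low arrays. Not all T-cell genes were alike in the groups. Cd28 had means of 8.62 in untreated Cd5-high and 4.21 in untreated Cd5-low arrays, and 9.11 and 4.86 with ADR. Cd2 ran the other way, with 6.49 and 8.98 untreated and 5.88 and 8.58 with ADR. The median untreated difference of all 15 measured T-cell markers was -0.03. Xist was high in 5 of 5 Cd5-high and 4 of 9 Cd5-low lymphomas, and 4 of 5 and 7 of 9 were described as samples of an earlier series. The 3' minus 5' signal of actin, a measure of RNA integrity on this array, ran from 0.53 to 0.76 in untreated Cd5-high and from 0.18 to 0.43 in untreated Cd5-low arrays without overlap, and from 0.33 to 0.70 and 0.09 to 0.92 in the ADR arrays. Its part in the results was not tested.

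The untreated Cd5 level chose the groups, so Cd5 is described with no test. It went from 10.30 to 9.96 in lymphoma 2949, from 10.57 to 10.00 in 5043, from 10.46 to 10.37 in 5766, from 10.03 to 9.98 in 6054 and from 9.81 to 10.07 in 7050. In the Cd5-low lymphomas it spanned 3.99 to 7.19 (median 5.40) untreated and 3.74 to 7.86 (median 4.92) with ADR. The groups stayed apart in the ADR arrays, and Cd5 changed by -0.16 ± 0.31 (SD, n = 5) in the Cd5-high and by -0.26 ± 1.01 (SD, n = 9) in the Cd5-low lymphomas. The largest fall within the Cd5-low group was in 5560, by 2.32, and the largest rise in 1467, by 0.97.

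Most p53 targets rose past the threshold (adjusted p under 0.05) with ADR in the Cd5-low lymphomas, and 1 did in the Cd5-high lymphomas. Of 42 targets listed, 37 were measured, and the rest were not analysed here. Their median change was 0.16 in the Cd5-high and 0.79 in the Cd5-low group, against -0.02 and 0.02 for all genes in the Cd5-low and Cd5-high groups. In the Cd5-low group 28 of the 37 targets rose past the threshold (14.3% of all genes rose) and 1 fell (11.9% of all genes fell), and in the Cd5-high group 1 rose and 1 fell (4.25% of all genes rose and 5.45% fell). A group mean of 5 lymphomas has a larger standard error than one of 9, for Mdm2 0.27 against 0.20, so the counts of the groups are not on the same footing. Read as the difference between the groups, the change of 34 of 37 targets was lower in the Cd5-high lymphomas, with a median difference of -0.85 against 0.02 over all genes, of which 47.3% had a negative sign. An unadjusted p under 0.05 was reached by 22 targets in the lower and 1 in the higher direction, where 4.79% and 4.68% of all genes did so. After Benjamini-Hochberg adjustment over all genes in limma, Phlda3 was the 1 target past the threshold of 0.05, where 0.022% of all genes passed in the lower and 0.011% in the higher direction. For Phlda3, Tnfrsf10b and Ephx1 all Cd5-high changes lay below all Cd5-low changes, as they did for 0.148% of all genes. The arrays that chose the groups enter every change, since the untreated value is subtracted.

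Taken lymphoma by lymphoma, the median change of the 37 targets was -0.25 in 2949, 0.42 in 5043, 0.14 in 5766, 0.01 in 6054 and 0.01 in 7050. For the Cd5-low lymphomas it ran from 0.17 in 5560 to 1.38 in 1570, with 403, 1467, 2581, 3594, 3769, 9583 and 9584 in between. The groups overlapped, because the Cd5-high lymphoma 5043 lay above the Cd5-low lymphoma 5560. In 5043 28 targets had a positive change and in 2949 11, and in the Cd5-low lymphomas 23 to 35 did. The median difference kept its sign when any 1 lymphoma was left out, between -0.97 and -0.71. With a filter on low values 33 targets remained, with a median difference of -0.85 and 30 of them lower in the Cd5-high group.

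**Figure D1:**
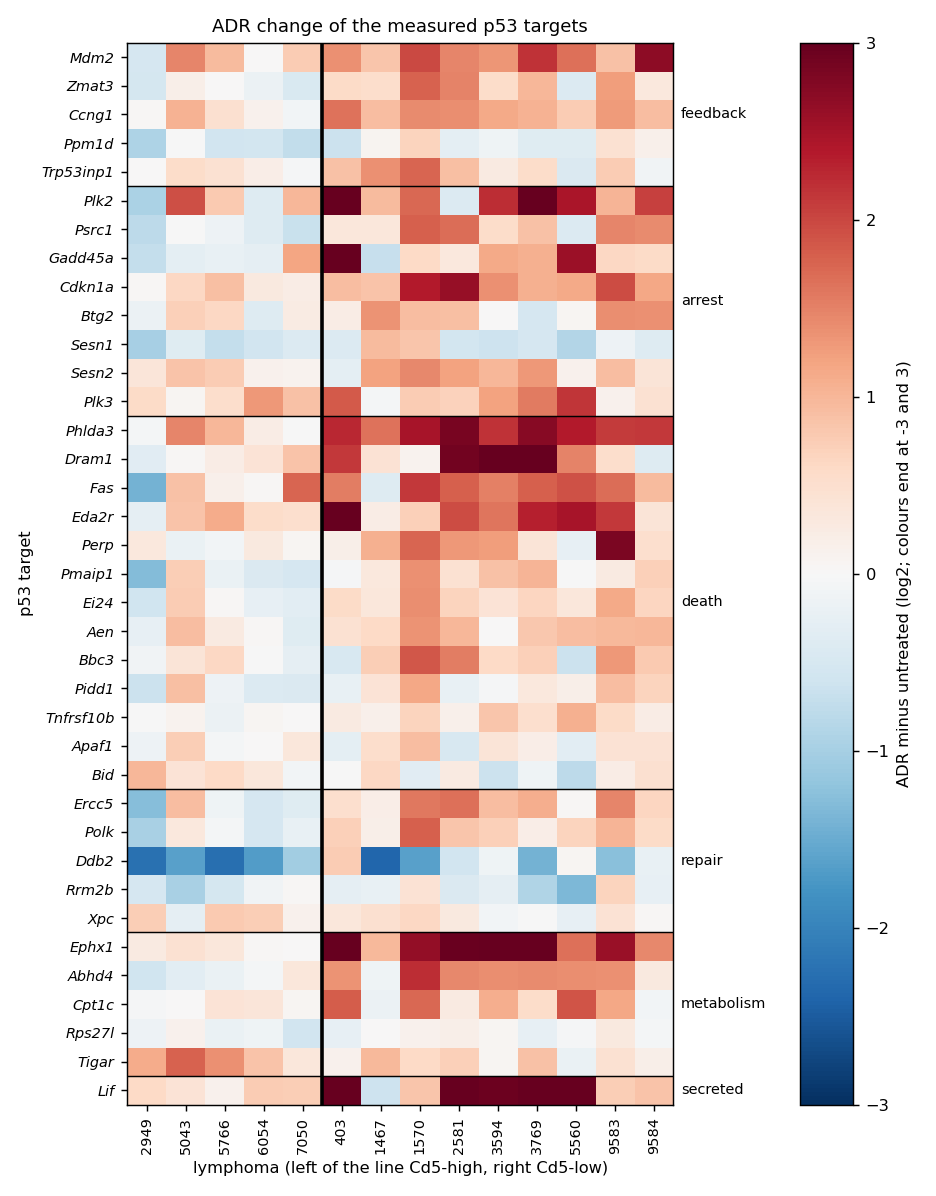
The heat map shows the ADR minus untreated change (log2, colours ending at -3 and 3) of the 37 measured p53 targets, grouped by role, in 5 Cd5-high lymphomas left of the line and 9 Cd5-low lymphomas right of it. Most targets are red in the Cd5-low columns, while the Cd5-high columns are pale or blue apart from parts of 5043 and 5766, and the Ddb2 row is blue in all 5 Cd5-high columns.

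Promoter windows of Cdkn1a, Mdm2, Ccng1, Phlda3 and Ephx1 were looked up, and only windows with a match to the p53 half-site are shown. No window with a match was found for Phlda3 or Ephx1. For the other 3 targets the 250 bases before the start site are given with each match in capitals. A half-site is the 10-base motif of which p53 binds a pair. The sequences are RefSeq promoters of build GRCm38.p6, read 5′ to 3′ on the strand of the gene, and the Cdkn1a window is that of the upstream of its 2 start sites.
Cdkn1a, chr17:29090729-29090978, plus strand: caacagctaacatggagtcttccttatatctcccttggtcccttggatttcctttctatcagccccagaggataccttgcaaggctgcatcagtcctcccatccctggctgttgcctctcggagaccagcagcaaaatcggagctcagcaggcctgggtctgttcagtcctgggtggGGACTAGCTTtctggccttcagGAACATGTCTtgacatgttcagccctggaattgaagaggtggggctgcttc
Mdm2, chr10:117710759-117711008, minus strand: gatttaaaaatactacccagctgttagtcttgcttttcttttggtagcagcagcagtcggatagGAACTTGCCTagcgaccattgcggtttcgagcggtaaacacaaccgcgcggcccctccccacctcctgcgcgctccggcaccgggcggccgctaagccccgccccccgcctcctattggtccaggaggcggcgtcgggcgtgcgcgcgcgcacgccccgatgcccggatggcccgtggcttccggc
Ccng1, chr11:40755287-40755536, minus strand: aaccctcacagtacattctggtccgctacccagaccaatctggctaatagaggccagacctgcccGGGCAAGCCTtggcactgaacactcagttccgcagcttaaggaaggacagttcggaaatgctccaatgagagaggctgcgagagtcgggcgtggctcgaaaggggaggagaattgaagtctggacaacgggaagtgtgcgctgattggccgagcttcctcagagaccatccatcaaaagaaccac
In Cdkn1a the half-sites began 73 and 51 bases before the start, and in Mdm2 and Ccng1 a single half-site began 186 and 185 bases before it. The half-site was searched by its consensus, which reads the same on both strands, in windows of 300 bases (250 before to 50 after each start). It was found in 8.36% of 32851 windows of all genes and in 12 of 38 windows (31.6%) of the p53 targets, which hold 11 of the 29 targets with a promoter in the table. The median difference in change was -0.85 for those 11 and -0.93 for the other 18 targets. A match is a description of these letters only, and binding was not measured.

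Among the feedback genes, 5 of 5 had a lower change in the Cd5-high group (median difference -0.85). Mdm2, the ubiquitin ligase that degrades p53, went from 10.68 to 10.18 in 2949, from 9.44 to 10.90 in 5043, from 9.65 to 10.60 in 5766, from 10.10 to 10.11 in 6054 and from 9.39 to 10.14 in 7050. In the Cd5-low lymphomas it lay between 8.54 and 9.72 (median 9.06) untreated and between 9.89 and 11.89 (median 10.60) with ADR. All 9 Cd5-low lymphomas rose, by 0.83 to 2.69, and 4 of 5 Cd5-high lymphomas rose, the exception being 2949, so the groups overlapped. The mean change was 0.53 ± 0.78 (SD, n = 5) against 1.60 ± 0.60 (SD, n = 9), a difference of -1.06 ± 0.34 (SE; limma adjusted p = 0.394). A two-sided exact permutation test over the 2002 ways to choose 5 of 14 lymphomas gave p = 0.0200 for this single gene, unadjusted. The gene and the groups were chosen with earlier results of these data known, which this p does not correct for. Ccng1, the p53-induced cyclin G1, rose by 0.77 to 1.64 in the Cd5-low lymphomas and changed by -0.08 to 1.04 in the Cd5-high ones (difference -0.85 ± 0.19 SE, adjusted p = 0.239). Zmat3, an RNA-binding target of p53, had a difference of -0.98 ± 0.29 SE (adjusted p = 0.351). The phosphatase Ppm1d, which switches the damage response off, was the feedback gene that did not rise in either group, with mean changes of -0.56 and -0.05.

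The arrest genes gave the same sign in 8 of 8 (median difference -0.75). Cdkn1a, which encodes the p21 inhibitor of cyclin-dependent kinases, went from 12.28 to 12.31 in 2949, from 11.50 to 12.13 in 5043, from 11.18 to 12.07 in 5766, from 11.60 to 11.89 in 6054 and from 11.19 to 11.42 in 7050. Across the Cd5-low lymphomas it lay between 9.04 and 11.03 (median 10.00) untreated and between 11.10 and 12.20 (median 11.65) with ADR. Every lymphoma rose, but the Cd5-high ones started above all Cd5-low ones and rose less, by 0.42 ± 0.34 (SD, n = 5) against 1.50 ± 0.65 (SD, n = 9). The difference in change was -1.08 ± 0.29 (SE; limma adjusted p = 0.333), and the two-sided exact permutation p for this single gene was 0.0020, unadjusted. As for Mdm2, this p does not correct for the choice of gene and groups with earlier results known. Psrc1, a microtubule-associated p53 target, had a negative change in 5 of 5 Cd5-high and a positive change in 8 of 9 Cd5-low lymphomas (difference -1.30 ± 0.33 SE, adjusted p = 0.310). Plk2, a polo-like kinase induced by p53, differed by -1.42 ± 0.62 SE (adjusted p = 0.504). Btg2, Gadd45a, Plk3 and Sesn2 rose in the Cd5-low group by 0.64, 1.10, 0.97 and 0.81 against changes of 0.21, -0.06, 0.67 and 0.44 in the Cd5-high group. Sesn1, a stress-induced regulator of growth signalling, was the arrest gene that did not rise in the Cd5-low group (-0.19), and its change was negative in all 5 Cd5-high lymphomas, at most -0.37.

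**Figure D2:**
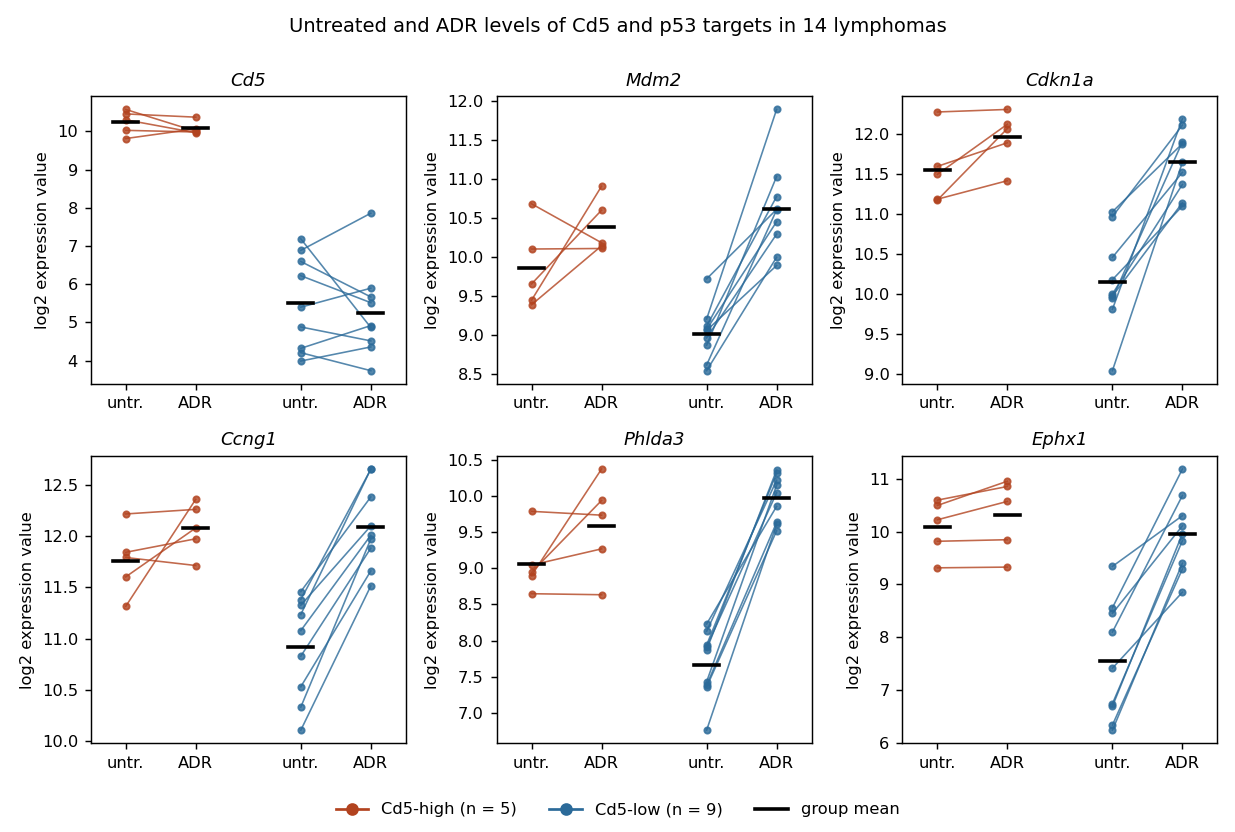
Each line joins the untreated (untr.) and ADR log2 value of 1 lymphoma for Cd5 and 5 p53 targets, in 5 Cd5-high (red) and 9 Cd5-low (blue) lymphomas, and black bars are group means. The Cd5-high lymphomas start higher on average in the 5 targets, and after ADR the ranges of the groups overlap, whereas Cd5 itself stays apart. For Phlda3 the Cd5-high lymphomas 6054 (9.27) and 7050 (8.63) lie below all Cd5-low lymphomas after ADR.

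Of 13 measured death genes 12 had a lower change in the Cd5-high group (median difference -0.76). Phlda3, a p53-induced inhibitor of the survival kinase Akt, went from 9.79 to 9.73 in 2949, from 8.90 to 10.37 in 5043, from 8.94 to 9.94 in 5766, from 9.04 to 9.27 in 6054 and from 8.65 to 8.63 in 7050. It rose in the Cd5-low lymphomas from between 6.76 and 8.23 (median 7.87) to between 9.52 and 10.36 (median 10.04). Its changes did not overlap, being -0.05 to 1.47 in the Cd5-high and 1.63 to 2.85 in the Cd5-low lymphomas. The difference of -1.77 ± 0.26 (SE) passed the threshold (adjusted p = 0.0289). Tnfrsf10b, a death receptor, rose in the Cd5-low group by 0.49 ± 0.09 SE (adjusted p = 0.0013) and changed by -0.0049 ± 0.12 SE in the Cd5-high group, again without overlap, at signals near the array median. Ei24, an endoplasmic reticulum protein first described as p53-induced, differed by -0.76 ± 0.22 SE (adjusted p = 0.333).

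The other death genes, apart from Bid, also had the lower change in the Cd5-high group, and none of these differences passed the threshold. Fas, the death receptor of the extrinsic pathway, rose in the Cd5-low group by 1.43 ± 0.28 SE and ran from -1.43 in 2949 to 1.74 in 7050 in the Cd5-high group. Bbc3 and Pmaip1, the BH3-only killers PUMA and NOXA, rose in the Cd5-low group by 0.71 ± 0.22 and 0.55 ± 0.18 SE (adjusted p = 0.0248 and 0.0316) and changed by 0.12 ± 0.29 and -0.34 ± 0.24 SE in the Cd5-high group. Aen, an apoptotic nuclease, Eda2r, a receptor of the tumour necrosis factor family, Perp, a membrane effector of apoptosis, and Dram1, a lysosomal protein of autophagy, rose in the Cd5-low group by 0.79, 1.65, 1.00 and 1.58 and changed by 0.12, 0.55, 0.08 and 0.24 in the Cd5-high group. Eda2r, Perp and Dram1 were dim, at 3.56 to 4.08, 2.70 to 3.13 and 3.92 to 4.42 in the untreated Cd5-high arrays. These levels lie below the untreated array median of 4.73, where differences are compressed. Apaf1, the core of the apoptosome, and Pidd1 passed the threshold in neither group. Bid was the death gene with the higher change in the Cd5-high lymphomas (0.49 ± 0.24 SE, adjusted p = 0.547).

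The repair genes split. Polk, a translesion polymerase, and Ercc5, a nucleotide excision endonuclease, rose in the Cd5-low group by 0.74 ± 0.15 and 0.90 ± 0.20 SE (adjusted p = 0.0023 and 0.0047) and changed by -0.29 ± 0.20 and -0.27 ± 0.27 SE in the Cd5-high group. Ddb2, which recognises ultraviolet damage, fell in both groups, by 1.77 ± 0.35 SE in the Cd5-high (adjusted p = 0.0053) and by 0.75 ± 0.26 SE in the Cd5-low lymphomas (adjusted p = 0.0455). The difference between its falls was -1.02 ± 0.44 SE (adjusted p = 0.499). Xpc, its partner in damage recognition, and Rrm2b, a ribonucleotide reductase subunit, passed the threshold in neither group, and Xpc was 1 of the 3 targets with a higher change in the Cd5-high lymphomas (0.21 ± 0.19 SE), beside Bid and Tigar.

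Among the metabolic targets the widest gap was that of Ephx1, microsomal epoxide hydrolase. It went from 10.60 to 10.86 in 2949, from 10.50 to 10.96 in 5043, from 10.23 to 10.57 in 5766, from 9.82 to 9.85 in 6054 and from 9.31 to 9.33 in 7050, and from between 6.23 and 9.34 (median 7.41) to between 8.85 and 11.19 (median 9.96) in the Cd5-low lymphomas. Its changes of 0.01 to 0.46 and 0.96 to 3.27 did not overlap, and the difference of -2.20 ± 0.36 (SE) just missed the threshold (adjusted p = 0.0512). Abhd4, a lipase, differed by -1.36 ± 0.31 SE (adjusted p = 0.263), and Cpt1c, a carnitine palmitoyltransferase, by -0.76 ± 0.34 SE (adjusted p = 0.513). Untreated Cpt1c lay at 3.67 to 3.85 in the Cd5-high and 3.75 to 4.25 in the Cd5-low arrays, below the untreated array median of 4.73. Tigar, a regulator of glycolysis, ran the other way: it was the 1 target that rose past the threshold in the Cd5-high group, by 1.09 ± 0.19 SE (adjusted p = 0.0027) against 0.42 ± 0.14 SE in the Cd5-low group (adjusted p = 0.0386), and its difference was 0.67 ± 0.24 SE (adjusted p = 0.427). Of the secreted targets only Lif, a cytokine, was measured. It changed by 0.14 to 0.76 in the Cd5-high and by -0.63 to 4.35 in the Cd5-low lymphomas (difference -1.58 ± 0.70 SE, adjusted p = 0.504). Within the Cd5-low group Lif rose by 2.95 to 4.35 in 403, 2581, 3594, 3769 and 5560, and changed by -0.63 to 0.85 in the others. Those with the large rise also had the largest mean change of the fibroblast markers, 2.48 to 4.19, followed by 2.36 in the Cd5-high lymphoma 5766. The part of fibroblast RNA in the Lif values was not tested.

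A difference in change is the difference in the ADR arrays minus that in the untreated arrays, and both were read for the same targets. In the untreated arrays, which chose the groups and are described without a test, 28 of 37 targets were higher in the Cd5-high lymphomas, with a median difference of 0.28. The untreated difference was 2.55 for Ephx1, 1.84 for Psrc1, 1.41 for Polk, 1.40 for Phlda3, 1.39 for Cdkn1a, 1.38 for Ercc5, 1.28 for Zmat3, 0.84 for Mdm2 and 0.83 for Ccng1. In the ADR arrays, which the choice of groups did not use, 13 of 37 were higher and the median difference was -0.16. There Mdm2 differed by -0.23 (adjusted p = 0.726, exact permutation p = 0.477) and Cdkn1a by 0.31 (adjusted p = 0.470, exact permutation p = 0.169). For Mdm2 and Cdkn1a the groups ended at levels whose ranges overlapped. Of the 37 targets 1 was called higher in the Cd5-high ADR arrays and 2 lower, where 1.48% and 1.35% of all genes were called. The higher one was Bid, a proapoptotic BCL2-family protein (0.67, adjusted p = 0.0367), chosen for mention after its value was seen. The lower ones were Tnfrsf10b (-0.76, adjusted p = 0.0205) and Abhd4 (-1.20, adjusted p = 0.0492). For Tnfrsf10b the ADR ranges did not overlap, at 3.93 to 4.23 in the Cd5-high and 4.43 to 5.37 in the Cd5-low lymphomas.

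**Figure D3:**
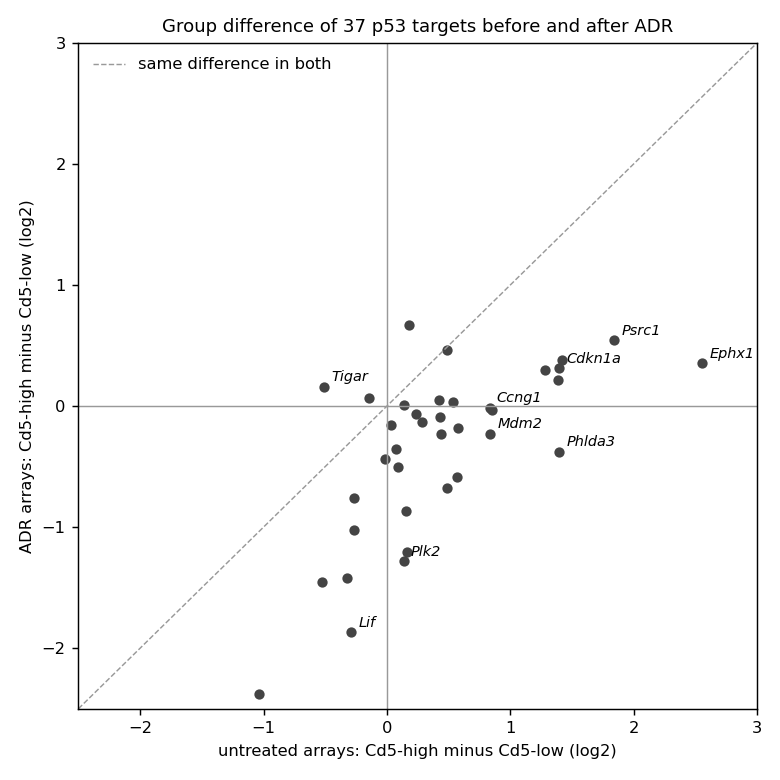
Each point is 1 of 37 p53 targets, placed by the Cd5-high minus Cd5-low difference in the untreated arrays (horizontal, log2) and in the ADR arrays (vertical, log2), with a dashed line where both are equal. For 34 of 37 targets the point lies below the dashed line, and targets with the widest untreated gap, such as Ephx1 (2.55) and Psrc1 (1.84), lie at 0.35 and 0.54 in the ADR arrays.

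Regulators of the pathway showed no shared shift. Of 14 measured, 7 had a lower and 7 a higher change in the Cd5-high group (median difference -0.01), and Trp53 itself was not analysed here. Mdm4, an Mdm2 relative that blocks p53, rose in the Cd5-low group by 0.91 ± 0.30 SE (adjusted p = 0.0358) and changed by -0.16 ± 0.40 SE in the Cd5-high group. Chek2, a kinase of the damage checkpoint, fell in the Cd5-high group by 1.05 ± 0.21 SE (adjusted p = 0.0058) and changed by -0.43 ± 0.16 SE in the Cd5-low group (adjusted p = 0.0552). The difference in change did not pass the threshold for either gene. Cdkn2a, whose Arf product restrains Mdm2, was at a mean of 3.52 and 4.42 in the Cd5-high and Cd5-low ADR arrays and changed by -0.12 and 0.07 in the means. In the Cd5-low ADR arrays Cdkn2a was at 7.64 in 403 and 5.75 in 3594 and between 3.36 and 4.59 in the other 7 (median of all 9, 3.68). Of the genes that drive and protect these lymphomas, Myc differed in change by 0.16 ± 0.39 SE (adjusted p = 0.909) and Bcl2 by 0.27 ± 0.32 SE (adjusted p = 0.797).

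Across all genes 6 differed in their ADR change past the threshold. In the Cd5-high lymphomas 4 of them had the lower change and 2 the higher, while 1723 genes (9.47%) had an unadjusted p under 0.05. Changes that did not overlap between the groups were found for 27 genes with all Cd5-high below all Cd5-low lymphomas and for 17 the other way (0.0934%), and all 6 called genes were among these. The count depended on single lymphomas. It was 0 without 6054, 1 without 3594, 5766 or 9583, 2 without 403, 2581 or 2949, 14 without 5043 and 15 without 7050. Zfp365 stayed past the threshold in 13 of 14 such fits, Epha2 and D13Ertd608e in 8, Phlda3 in 7, Blk in 4 and Lsp1 in 3.

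Zfp365, which encodes a zinc finger protein linked to genome stability at replication forks, had the largest difference of the 6. It went from 6.96 to 6.35 in 2949, from 6.47 to 7.94 in 5043, from 7.13 to 6.99 in 5766, from 7.23 to 6.65 in 6054 and from 7.23 to 6.29 in 7050. In the Cd5-low lymphomas it rose from between 3.58 and 6.20 (median 4.70) to between 6.16 and 8.87 (median 7.76). Its change was negative in 4 of 5 Cd5-high lymphomas, with 5043 at 1.47, and between 1.83 and 3.22 in the Cd5-low lymphomas (difference -2.79 ± 0.33 SE, adjusted p = 0.0070). Epha2, an ephrin receptor kinase, changed by -0.33 to -0.82 in all 5 Cd5-high lymphomas and by 0.25 to 2.04 in all 9 Cd5-low lymphomas (difference -1.77 ± 0.26 SE, adjusted p = 0.0289). Both genes were higher in every untreated Cd5-high than in every untreated Cd5-low array, by 2.29 and 2.26 in the means, and overlapped after ADR.

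Blk, a Src-family kinase of the B-cell receptor, fell in all 5 Cd5-high lymphomas, from 7.90 to 6.32 in 2949, 10.59 to 8.33 in 5043, 9.30 to 6.50 in 5766, 8.23 to 6.39 in 6054 and 7.04 to 5.33 in 7050. Its change in the Cd5-low lymphomas lay between -0.94 and 1.46 (median 0.03), and the difference between the groups was tested at -2.14 ± 0.34 SE (adjusted p = 0.0450). The means of Blk in the Cd5-high and Cd5-low groups were 8.61 and 6.07 untreated and 6.57 and 6.18 with ADR. Lsp1, a leukocyte actin-binding protein, rose in all 5 Cd5-high lymphomas, by 0.40 to 1.05, and changed by -1.03 to 0.15 (median -0.29) in the Cd5-low lymphomas (difference 1.25 ± 0.20 SE, adjusted p = 0.0450). Untreated Lsp1 was lower in every Cd5-high than in every Cd5-low lymphoma (9.43 to 10.36 against 10.43 to 11.28). With ADR the groups overlapped (means 10.77 and 10.49). D13Ertd608e rose by 0.37 to 1.79 in the Cd5-high lymphomas and changed by -0.23 to 0.23 in the Cd5-low lymphomas (difference 1.23 ± 0.18 SE, adjusted p = 0.0289), with ADR values of 3.77 to 6.24 and 3.30 to 3.93. It alone of the 6 genes was also called in the ADR arrays (1.64, adjusted p = 0.0090).

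Other genes with the smallest p-values did not pass the threshold. Ankrd63, Skap1, an adaptor of integrin signalling, and Mybl1, a Myb-family transcription factor, fell in the Cd5-high group, with changes of -1.34, -1.52 and -0.91 (adjusted p = 0.0013, 0.0016 and 0.0101) and differences of -1.43, -1.53 and -1.34 (adjusted p = 0.0551, 0.117 and 0.117). Ankrd63 and Skap1 had untreated means of 5.49 and 5.38 in the Cd5-high against 3.91 and 3.76 in the Cd5-low group. With ADR the means were 4.15 and 3.86 against 4.00 and 3.77. Syce2, a protein of the meiotic synaptonemal complex, fell in the Cd5-low group by 2.12 ± 0.29 SE (adjusted p = 1.87e-04) and changed by 0.02 ± 0.39 SE in the Cd5-high group, where 4 of 5 untreated values were 5.92 or lower against 8.16 to 9.48 in the Cd5-low lymphomas. Kcnn4, a calcium-activated potassium channel, rose in the Cd5-high group by 1.04 ± 0.24 SE (adjusted p = 0.0120) and changed by -0.35 ± 0.18 SE in the Cd5-low group. Mthfd1l, a mitochondrial folate enzyme, and Aldh9a1, an aldehyde dehydrogenase, fell in the Cd5-low group, with changes of -0.81 and -0.47 (adjusted p = 5.17e-04 and 4.42e-04) and changed by 0.20 and 0.07 in the Cd5-high group.

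Most genes of MHC class II, which presents peptides to helper T cells, fell in the Cd5-high lymphomas. Of 8 measured members 5 fell past the threshold there and none rose, where 5.45% of all genes fell and 4.25% rose: the chains H2-Aa, H2-Ab1 and H2-Eb1 and the peptide-loading genes H2-DMa and H2-Oa. In the Cd5-low group H2-Aa and H2-Eb1 rose and H2-Ob fell (14.3% of all genes rose and 11.9% fell). All 8 had a lower change in the Cd5-high group (median difference -0.93; 47.3% of all genes had this sign). An unadjusted p under 0.05 was reached by 4 of them (4.79% of all genes in this direction), and 3 had changes that did not overlap (0.148%). The 4 became 7 without 5560, 2 with a random replicate block and 1 with no replicate block. Of the 8 B-cell markers 2 fell past the threshold in the Cd5-high and 1 in the Cd5-low group, and their mean change ran from -0.94 to -0.47 in the Cd5-high and from -1.73 to 0.50 in the Cd5-low lymphomas (means -0.74 and -0.39). Their part in the result was not tested. H2-Aa, the alpha chain of the I-A molecule, went from 10.68 to 8.41 in 2949, from 11.19 to 10.32 in 5043, from 10.71 to 9.05 in 5766, from 10.38 to 8.44 in 6054 and from 9.35 to 8.51 in 7050. In the Cd5-low lymphomas it went from between 8.21 and 12.54 (median 10.79) to between 10.05 and 12.77 (median 11.61). The groups shared a range before treatment, and after ADR 4 of 5 Cd5-high lymphomas lay below all Cd5-low ones, the exception being 5043. The difference in change was -2.25 ± 0.37 SE (adjusted p = 0.0550), and in the ADR arrays H2-Aa was lower in the Cd5-high group by 2.59 (adjusted p = 0.0084). H2-Ab1, its beta chain, changed by -1.24 to -0.52 against -0.32 to 0.86 (difference -1.11 ± 0.20 SE, adjusted p = 0.117). H2-Eb1, the beta chain of I-E, changed by -1.65 to -0.50 against -0.31 to 1.85 (difference -1.69 ± 0.32 SE, adjusted p = 0.117).

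**Figure D4:**
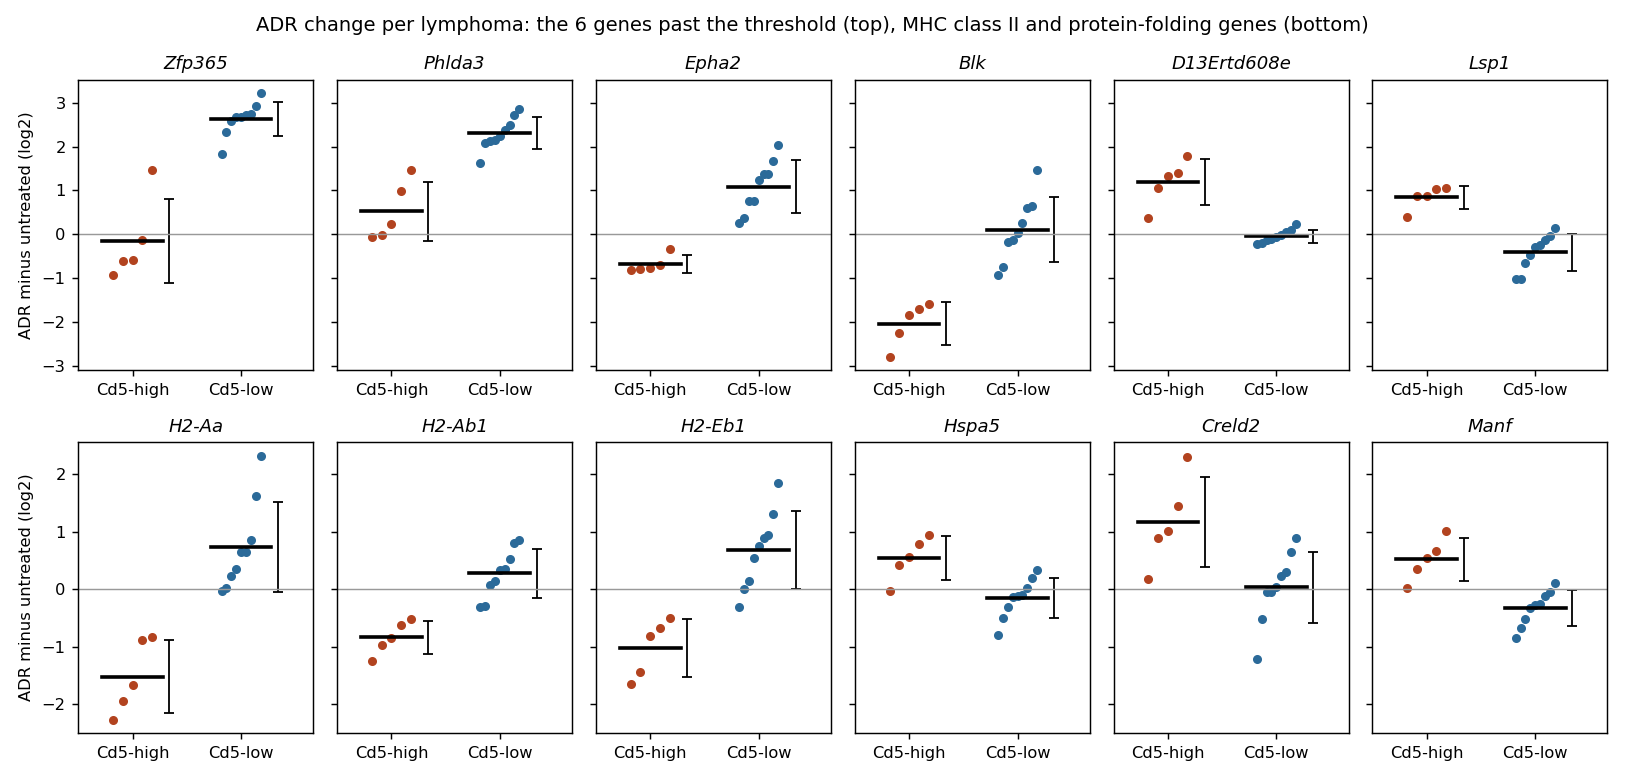
Points are the ADR minus untreated change (log2) of single lymphomas, black bars are group means and whiskers are 1 SD, for the 6 genes called different (top) and for MHC class II and protein-folding genes (bottom), in 5 Cd5-high (red) and 9 Cd5-low (blue) lymphomas. The groups do not overlap in the top panels or in H2-Aa, H2-Ab1 and H2-Eb1, and they overlap in Hspa5, Creld2 and Manf.

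Genes of B-cell receptor signalling were mixed, with 13 of 22 lower in change in the Cd5-high group (median difference -0.27) where 47.3% of all genes had that sign. An unadjusted p under 0.05 was reached by 5, all lower (4.79% of all genes). Egr1, an immediate early transcription factor induced by receptor signalling, stood at 11.65, 11.04, 10.52, 9.75 and 8.38 in the untreated arrays of 2949, 5043, 5766, 6054 and 7050, and at 8.67, 9.73, 8.77, 8.78 and 9.09 with ADR. In 8 of 9 Cd5-low lymphomas it was at 6.52 or lower untreated and rose, by 1.68 to 4.89. The exception was 1467, the Cd5-low lymphoma with the second highest untreated Cd5 level, which went from 10.21 to 8.15. Lymphoma 5560, with the highest untreated Cd5 level of that group, was among the 8. The difference of -4.00 ± 0.96 SE was large but had a wide spread (adjusted p = 0.288). Cr2, the complement receptor of mature B cells, fell in the Cd5-high group by 0.66 ± 0.12 SE (adjusted p = 0.0042), from an untreated mean of 4.56, close to the array median. Of 14 B-1 cell genes 7 were lower and 7 higher in change. The one with the smallest p, Zbtb32, a repressor in activated lymphocytes, fell in the Cd5-low group by 1.58 ± 0.21 SE (adjusted p = 1.64e-04) and changed by 0.07 ± 0.28 SE in the Cd5-high group (difference 1.65 ± 0.35 SE, adjusted p = 0.218).

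The unfolded protein response, which raises chaperones of the endoplasmic reticulum, had the higher change in the Cd5-high lymphomas. Of 16 measured genes 7 rose past the threshold there and 4 in the Cd5-low group (4.25% and 14.3% of all genes), and none fell in either. The change of 15 was higher in the Cd5-high group (median difference 0.55), and 7 of them had an unadjusted p under 0.05 (4.68% of all genes in this direction). In the untreated arrays, which chose the groups, 3 of the 16 were higher in the Cd5-high group (median difference -0.18). In the ADR arrays 12 were higher (median difference 0.19), and 1 was called higher (1.48% of all genes). Hspa5, the main chaperone of the compartment, changed by 0.79, 0.41, 0.95, 0.56 and -0.04 in 2949, 5043, 5766, 6054 and 7050 and by -0.80 to 0.33 (median -0.13) in the Cd5-low lymphomas. The groups overlapped through 7050 alone. Its difference in change was 0.69 ± 0.19 SE (adjusted p = 0.333), and in the ADR arrays it was 0.60 higher in the Cd5-high group (adjusted p = 0.0215). Creld2, another stress-induced protein of the compartment, differed in change by 1.13 ± 0.35 SE (adjusted p = 0.377). Manf, a secreted stress-induced factor that is on no list, rose by 0.52 ± 0.14 SE in the Cd5-high group (adjusted p = 0.0341) and fell by 0.33 ± 0.11 SE in the Cd5-low group (adjusted p = 0.0355). Its difference in change was 0.84 ± 0.18 SE (adjusted p = 0.219). The number with an unadjusted p under 0.05 ranged from 3 without 2949 to 10 without 2581, and was 4 without 3769, 5560 or 5766 and 4 within the lymphomas with high Xist.

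Cell cycle genes fell in both groups. All 24 measured genes of G2 and mitosis fell past the threshold in the Cd5-high and in the Cd5-low group (median change -2.42 and -1.83). Of all genes 5.45% and 11.9% fell in these groups. None of the 24 differed in change at an unadjusted p under 0.05, where 9.47% of all genes did. All 24 nevertheless had the larger fall in the Cd5-high mean (median difference -0.65), where 47.3% of all genes had a negative sign. Without 2949 the median difference was -0.21, with 23 of 24 lower, and within the lymphomas with high Xist it was -0.12, with 21 of 24 lower. By lymphoma the median change of the list ran from -4.07 in 2949 to -1.45 in 7050 in the Cd5-high group and from -2.82 in 3769 to -0.28 in 9584 in the Cd5-low group, so the groups overlapped. Against the same shares of falling genes, 18 and 19 of 21 S-phase genes fell (median difference 0.00), and all 11 homologous recombination genes fell in both groups. The CDK inhibitor Cdkn2c fell in the Cd5-high group by 1.32 ± 0.29 SE (adjusted p = 0.0103) and changed by -0.14 ± 0.22 SE in the Cd5-low group (difference -1.18 ± 0.37 SE, adjusted p = 0.384). Lmnb1, the lamin B1 gene whose loss accompanies senescence, fell in the Cd5-low group by 1.80 ± 0.25 SE (adjusted p = 1.94e-04) and changed by -0.82 ± 0.33 SE in the Cd5-high group (adjusted p = 0.154), with a difference of 0.98 ± 0.41 SE (adjusted p = 0.496). Its means in the Cd5-high and Cd5-low groups were 8.14 and 9.37 untreated and 7.32 and 7.57 with ADR, so the gap lay mainly in the untreated arrays.

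Some inflammatory genes rose in each group, and no difference in their change was called. Of 29 secretory genes associated with senescence 8 rose in the Cd5-high and 19 in the Cd5-low group, where 4.25% and 14.3% of all genes rose. Of the 29, 21 had the lower change in the Cd5-high group (median difference -0.30), a sign that 47.3% of all genes had. Against the same shares, 6 and 20 of 25 interferon response genes rose and 19 had the lower change (median difference -0.28), and 2 and 6 of 15 NF-kB targets rose and 12 had the lower change (median difference -0.24). The chemokine Ccl7 rose in the Cd5-low group by 3.63 ± 0.40 SE (adjusted p = 5.46e-05) and changed by 1.25 ± 0.54 SE in the Cd5-high group (adjusted p = 0.184), with a difference of -2.38 ± 0.67 SE (adjusted p = 0.333). Its largest changes, 5.67 and 4.83, were in 403 and 3769. Among 20 lysosome genes 13 and 16 rose and 17 had the lower change (median difference -0.20).

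Markers of fibroblasts and macrophages rose in part, whereas of 15 T-cell markers 0 and 1 rose in the Cd5-high and Cd5-low groups. Of 5 NK-cell markers none rose in either group and 2 fell in the Cd5-low group, where 11.9% of all genes fell. The mean level of 18 measured fibroblast markers of 20 listed was 4.82 to 5.67 in untreated Cd5-high and 4.78 to 5.17 in untreated Cd5-low arrays, and 5.34 to 7.78 and 5.12 to 9.34 with ADR. Their mean change ran from 0.46 to 2.36 in the Cd5-high and from -0.05 to 4.19 in the Cd5-low lymphomas, with 403 and 5560 highest, and 2 markers rose past the threshold in the Cd5-high group against 14 in the Cd5-low group (4.25% and 14.3% of all genes). Of the 18, 15 had the lower change in the Cd5-high group (median difference -0.67). For 14 macrophage markers of 15 listed the mean level with ADR was 6.55 to 8.57 and 6.22 to 9.32, and the mean change ran from 0.64 to 1.73 and from 0.71 to 2.98, with 7 and 9 rises. Of the 14, 12 had the lower change in the Cd5-high group (median difference -0.30). Array signals have no true 0, so no marker could be called absent. Dcn, a fibroblast proteoglycan, changed by 0.71 ± 0.88 SE in the Cd5-high and 3.16 ± 0.66 SE in the Cd5-low group, and Csf1r, the macrophage growth factor receptor and 1 of the 2 macrophage markers with the higher change in the Cd5-high group, by 2.64 ± 0.44 SE and 1.40 ± 0.33 SE. The part of these cells in the inflammatory genes was not tested. For the p53 targets the median difference was -0.75 with the fibroblast change as a covariate and -0.71 with the macrophage change. It was -0.85 within the lymphomas with high Xist and -0.78 without 403 and 5560. For MHC class II the same 4 settings gave -1.11, -0.77, -1.28 and -1.11, and for the unfolded protein response 0.51, 0.68, 0.40 and 0.49. The last 2 settings were chosen after the data were seen.

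**Figure D5:**
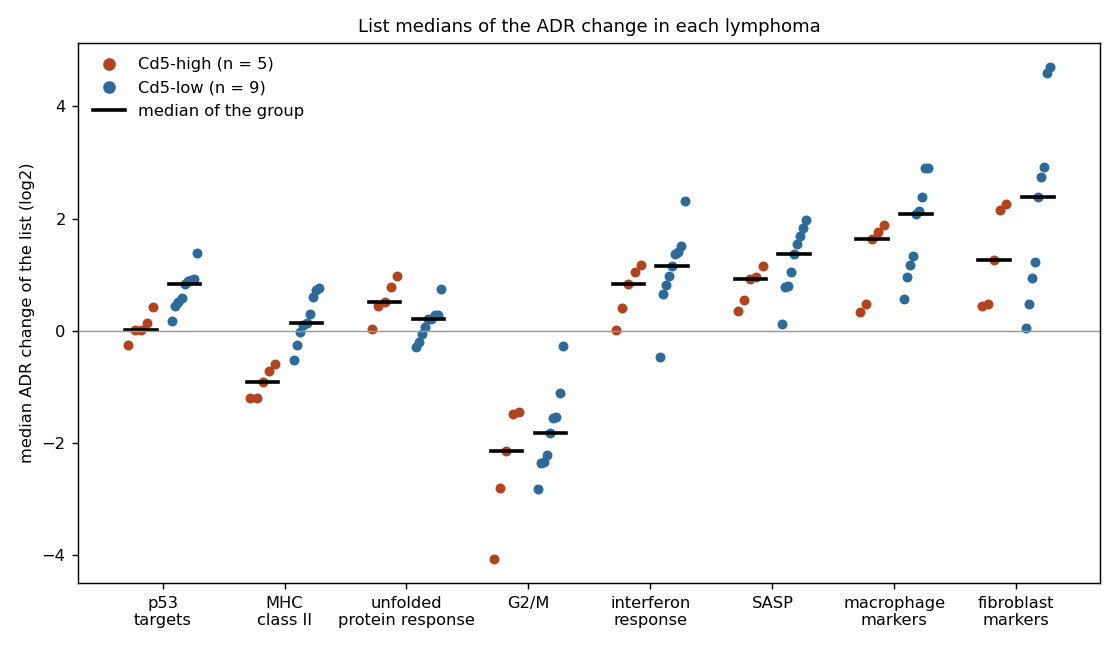
Each point is the median ADR change (log2) of 1 gene list in 1 lymphoma, for 5 Cd5-high (red) and 9 Cd5-low (blue) lymphomas, and black bars are the medians of each group. The Cd5-high points lie between -0.25 and 0.42 for p53 targets and all below 0 for MHC class II, both groups lie below 0 for G2/M, and the fibroblast points of the Cd5-low group spread most widely.

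In all, ADR raised 773 and lowered 992 genes in the Cd5-high lymphomas, and raised 2601 and lowered 2172 in the Cd5-low lymphomas. Of these 1338 were called in both groups in the same direction and 5 in opposite directions, Lsp1 and Manf rising and H2-Aa, H2-Eb1 and Mybl1 falling in the Cd5-high lymphomas. The Cd5-high total of 1765 was 679 without lymphoma 5766.

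The ADR arrays alone separated the groups at 516 genes, 270 higher and 246 lower in the Cd5-high lymphomas. The count was 150 without 6054, 155 without 5766 and 180 without 2949. Cd5 is left aside here as the gene of the rule. Pdcd1, the inhibitory receptor PD-1, stood at 6.25, 6.90, 6.62, 6.12 and 5.74 in the ADR arrays of 2949, 5043, 5766, 6054 and 7050 and at 3.00 to 4.70 in those of the Cd5-low lymphomas, with no overlap (difference 2.63, adjusted p = 2.94e-04). Its untreated difference was 3.39 and its difference in change -0.76 ± 0.35 SE (adjusted p = 0.513), so it marked the groups in both conditions. A430093F15Rik (2.61, adjusted p = 1.44e-05), Ccdc28b (1.81, adjusted p = 0.0018) and 5031425E22Rik (0.83, adjusted p = 0.0012) were the other genes with the smallest p among those higher. Among those lower, Hpse, the enzyme heparanase that cuts heparan sulphate, stood at 4.71 to 5.19 in the Cd5-high and 7.15 to 8.54 in the Cd5-low ADR arrays (difference -2.79, adjusted p = 1.44e-05). Mfsd10, a membrane transporter (-2.45), Decr1, an enzyme of mitochondrial fatty acid oxidation (-3.17), Vkorc1, the vitamin K epoxide reductase (-3.39), and Bscl2, the lipid droplet protein seipin (-2.49), were likewise lower in every Cd5-high than in every Cd5-low ADR array (adjusted p = 2.23e-05, 4.96e-05, 6.52e-05 and 3.23e-04). All of these genes but 5031425E22Rik were already apart without overlap in the untreated arrays, and none of their differences in change passed the threshold.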

How the data were processed

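Samples were grouped by the labels, which give a lymphoma identifier and a condition for each of 28 arrays, and lymphomas were grouped by the untreated Cd5 level (threshold 9). The deposited values are log2 expression values, normalized by RMA in Partek 6.5 per the submitters' processing notes; the genome build is not given in the sources used here. Of 45101 probe sets 34945 were assigned to 1 gene by the platform annotation with symbols updated through RefSeq, and the brightest probe set of each gene over the 28 arrays was kept, which gave 18193 genes. No value column lacked a sample (0 columns). The small number of arrays bounds how precise each value can be. Whether lymphomas came from separate animals is known only as far as the identifiers say.

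Changes were fitted in limma 3.58.1 (R 4.3.3) with lymphoma as a block, as the per-lymphoma difference, with 1 mean per group. The ADR arrays were fitted on their own. The Benjamini-Hochberg adjustment ran over all genes, with calls at 0.05, and the scripts were tested on simulated data. Arrays of the same lymphoma deviated together from the mean of all lymphomas in their condition (r from 0.27 to 0.61, median 0.48, against -0.08 for different lymphomas). The difference between the Cd5 groups is part of these r values. The labels give this pairing. Exact permutation tests used Python 3.11.15, and figures matplotlib 3.10.9.

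The genes named were Cd5, Mdm2, Cdkn1a, Mdm4, Cdkn2a, Myc and Bcl2, the measured p53 targets with up to 3 smallest p-values per role in detail, 12 genes per direction with the lowest p of the difference, up to 3 per other list, and 5 per direction in the ADR arrays, from which the text describes a selection. The 25 lists hold 436 entries, of which 394 were measured. Groups, members and lists were chosen with earlier results of these data known. Alternatives changed the block, the probe set, the filter, the centring, covariates and the lymphomas used.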

Additional observations from a re-analysis of the deposited data

Results flagged for a closer look

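The change with ADR differed between Cd5-high and Cd5-low lymphomas in limma for 6 genes: by -2.79 for Zfp365, by -1.77 for Phlda3, by -1.77 for Epha2, by -2.14 for Blk, by 1.23 for D13Ertd608e and by 1.25 for Lsp1 (log2, Cd5-high minus Cd5-low). Within the 5 Cd5-high lymphomas, 1 value stood apart from the others by Dixon's test for Lsp1, where the change in 6054 was 0.40, and for Epha2, where the change in 5043 was -0.33. Chance marks about 1 in 20 groups in this way. With the outlying lymphomas included, every Cd5-high lymphoma kept the sign of its group for both genes.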

How the results depend on the processing

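The 6 genes with a different change depended most on the setting. Their number was 0 with no replicate block, 1 with a random replicate block, 1 with the earlier series as covariate and 0 with the Cd5 level as a continuous covariate, and 3 in the lymphomas with high Xist and 2 without 403 and 5560, both chosen after seeing the data. Leaving out 1 lymphoma gave 0 to 15. The 1765 genes changed in the Cd5-high group were 802 with no replicate block, 1151 in the 11 lymphomas of the earlier series and 2981 with the fibroblast change as covariate, and 679 to 1905 leaving out 1 lymphoma. The 4773 in the Cd5-low group were 2057 in the lymphomas with high Xist and 3772 to 5154 leaving out 1. The 516 genes of the ADR arrays were 311 in the 11 lymphomas, 115 in those with high Xist and 150 to 582 leaving out 1. The cause was not tested, beyond fewer lymphomas where some were left out. The differences of Mdm2 (-1.30 to -0.81 leaving out 1 lymphoma), Cdkn1a (-1.20 to -0.94) and the p53 median (-0.97 to -0.71) kept their direction in every alternative run. With no replicate block, a random replicate block or an intensity trend the complete pairs fix the estimated difference in advance (p53 median -0.85). Those runs could therefore not change its direction. With no replicate block 20 targets rose past the threshold in the Cd5-low group in place of 28. Of 3025 values of 114 named genes under the alternatives, 2909 kept direction and side of the threshold, which includes genes past it in neither fit. Of the rest 82 lost and 25 gained the threshold and 9 changed sign. Those were Myc (-0.21 with the fibroblast covariate, -0.065 and -0.042 without 2949 and 5560 against up to 0.33 without 7050, -0.27 with high Xist, -0.16 without 403 and 5560), Bcl2 (-0.17 with the probe set of largest variance, -0.044 with high Xist), Fanci (0.18 with that probe set) and Ms4a1 (0.021 with the macrophage covariate). Dim probe sets near or below the array median, such as D13Ertd608e, Tnfrsf10b, Cr2, Eda2r, Perp, Dram1 and Cpt1c, compress differences.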
